A study of Saccharomyces cerevisiae with 4 samples.

Results

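The 3′ part of domain V of the yeast 25S rRNA was examined by PAR-CRAC, a method in which a protein is cross-linked to RNA in living cells and the bound RNA fragments are sequenced. The stretch was chosen by position and not by its values. It comprises nucleotides 2601 to 2995 of the 25S rRNA, that is 395 of its 3396 nucleotides, with 105 of its 869 uridines. The RNA in question is annotated as RDN25-2, a 25S gene of the ribosomal DNA array on chromosome XII. All 4 libraries came from Saccharomyces cerevisiae with the BY4741 background. There were 2 WT libraries, from cells with no tagged protein, and 2 Dbp7-HTP libraries, from cells in which the gene for Dbp7 carries a C-terminal His-Tev-ProtA tag at its own locus. The bait was taken from the sample labels and the design text, whereas the growth protocol speaks of tagged Has1, Mak5 or Spb4, and no value here tests which protein was tagged. Every culture, WT included, was grown exponentially with 4-thiouracil in low uracil medium and irradiated at 365 nm, so that WT gives the background of RNA recovered without a bait. The cell extracts are from whole cultures of 1 strain each, and no strain with an unrelated tagged protein or a catalytically inactive Dbp7 was used here.

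Dbp7 is a DEAD-box RNA helicase that acts in the nucleolus on early precursors of the large ribosomal subunit. Domain V folds into a central ring from which several helices radiate, and this ring is the peptidyl transferase centre, where peptide bonds are formed. Many of its nucleotides are modified, some by box H/ACA or box C/D snoRNPs that pair with the precursor RNA, and others by stand-alone enzymes. 4-thiouridine incorporated into RNA reads as C instead of T in the sequenced cDNA once it has been cross-linked, so a T-to-C substitution marks a uridine at or near a contact.

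The stretch with the highest coverage is printed first, because most of the uridines with the highest number of substitutions lie in it. Sequences are from the deposited tables, 5′ to 3′ and with T for U. The capitals mark 8 uridines that were among the 10 with the most substitutions in Dbp7-HTP, namely U2861, U2862, U2865, U2866, U2868, U2869, U2873 and U2875.
nucleotides 2845 to 2886: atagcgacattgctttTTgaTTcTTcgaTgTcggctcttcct
The next sequences surround single uridines whose values differ from those of their neighbours, each of which is shown in capitals with 12 nucleotides on either side.
U2655: acgcagatgtccTaaggggggctca
U2701: agaacaaaagggTaaaagccccctt
U2795: tgaggctagaggTgccagaaaagtt
U2818: ttaccacagggaTaactggcttgtg
U2949: gggaacgtgagcTgggtttagaccg

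Coverage was the number of reads over each nucleotide. To compare libraries, it was scaled to 1000000 mapped reads (RPM). The 3′ part of domain V was covered by a median of 107 and 217 reads per nucleotide in WT and of 4745 and 2748 in Dbp7-HTP. The lowest coverage of any nucleotide was 16 reads, in WT replicate 1. This library was the shallowest, with an estimated 159127 mapped reads, against a stated 467529 in WT replicate 2. Dbp7-HTP replicate 1 had an estimated 1214217 and Dbp7-HTP replicate 2 a stated 730583. Within a strain the labels tell libraries apart only by number, so p-values measure only the spread between them, which may be technical. Pearson's r between the 2 profiles of a strain over the 395 nucleotides was 0.997 for Dbp7-HTP and 0.892 for WT. Without the peak stretch, these values were 0.971 and 0.494, across nucleotides that share reads and are not independent. Between a WT and a Dbp7-HTP library, r ran from 0.866 to 0.929, and from 0.365 to 0.517 without the peak stretch. The values between the WT libraries lay inside these ranges.

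The share of the 25S coverage that fell on the 3′ part of domain V was higher in Dbp7-HTP than in WT. It was 11.6% and 11.8% in the WT libraries, where the stretch makes up 11.6% of the 25S nucleotides, and 30.4% and 30.2% in the Dbp7-HTP libraries. The means were 11.7% ± 0.151 (SD, n = 2) and 30.3% ± 0.158 (SD, n = 2), a difference of 18.6 percentage points or 2.59-fold. The strains did not overlap, and the difference was far larger than the spread within either strain. An exact two-sided permutation test gave p = 0.333, which is the smallest that 2 libraries against 2 can give. This measure needs no library total, since numerator and denominator come from the same library. The share of 25S substitutions was 11.5% and 11.8% in WT and 30.6% and 29.2% in Dbp7-HTP. It largely repeats the share of coverage, since only reads with a T-to-C change were kept.

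In RPM, the mean coverage of the 395 nucleotides was 867 and 596 in WT and 5314 and 5109 in Dbp7-HTP, a 7.12-fold difference of means and a log2 ratio of 2.86. On average, the rest of 25S differed less. The highest 50-nt window of 25S outside the stretch, however, had a log2 ratio of 4.17, against 3.36 for the highest inside. The 2600 nucleotides 5′ of the stretch had 630 and 573 RPM in WT and 1181 and 981 RPM in Dbp7-HTP, a log2 ratio of 0.84. The 401 nucleotides 3′ of it had 2416 and 661 RPM in WT and 4308 and 5266 RPM in Dbp7-HTP, and there the 2 WT libraries stood far apart. In 18S, the rRNA of the small subunit, coverage was lower in Dbp7-HTP, at 342 and 356 RPM against 850 and 920 RPM. Each of the 395 nucleotides had higher RPM in both Dbp7-HTP libraries than in both WT libraries, but this held for 68.5% of all 25S nucleotides. As a share of 25S coverage, 358 of the 395 nucleotides were higher in both Dbp7-HTP libraries, beside 22.6% of all 25S nucleotides, and 0 were lower in both.

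**Figure D1:**
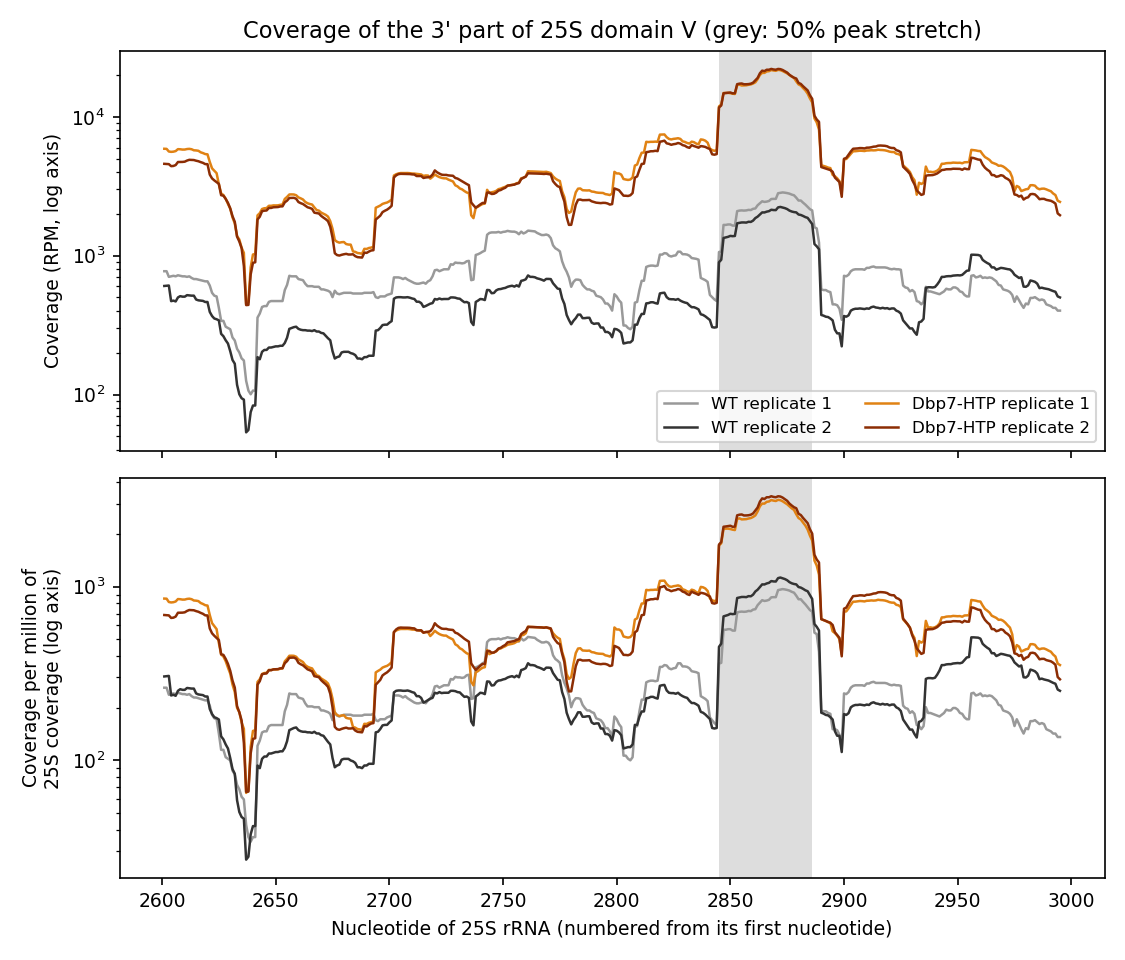
Coverage of each nucleotide from 2601 to 2995 of 25S rRNA in the 4 libraries, in RPM (top) and as a share of the 25S coverage of the library in parts of 1000000 (bottom), both on log axes, with the peak stretch of nucleotides 2845 to 2886 in grey. Both Dbp7-HTP lines lie above both WT lines at all 395 nucleotides in RPM and at 358 of them as a share of 25S.

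The highest coverage was at the same place in both strains. In Dbp7-HTP the maximum was G2871, with 21757 and 22096 RPM, and this nucleotide had 2815 and 2227 RPM in WT. In WT the maximum was its neighbour A2872, with 2834 and 2244 RPM. The untagged cells therefore had a background peak at this site, and the 2 strains differed at G2871 by a log2 ratio of 3.12. A second maximum, at least 20 nt away and above 2 times the median of the 395 nucleotides, was C2849 in Dbp7-HTP, with 14863 and 14890 RPM against 1678 and 1367 RPM in WT, and G2850 in WT.

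The contiguous run at or above 50% of the Dbp7-HTP maximum had 42 nucleotides, from A2845 to U2886, with 18 uridines. Its 5′ edge was steep, as C2844 just outside had 5766 and 5386 RPM in Dbp7-HTP and A2845 just inside had 11887 and 11655 RPM. At the 3′ edge, U2886 had 12693 and 13474 RPM and A2887 had 9733 and 10184 RPM. The same step at the 5′ edge was present in WT, from 471 and 306 RPM at C2844 to 1062 and 896 RPM at A2845. This stretch alone took 3.21% and 3.86% of the 25S coverage in WT and 10.8% and 11.3% in Dbp7-HTP. Within the 3′ part of domain V, it held 27.7% and 32.6% of the coverage in WT and 35.4% and 37.5% in Dbp7-HTP.

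Nucleotides outside the peak stretch also took a higher share of 25S in Dbp7-HTP. With the 42 nucleotides removed, the remaining 353 had 8.40% and 7.97% of the 25S coverage in WT and 19.7% and 18.9% in Dbp7-HTP, a difference of 11.1 percentage points. Their mean coverage was 702 and 449 RPM in WT and 3843 and 3572 RPM in Dbp7-HTP, 6.44-fold. For comparison, the 42 nucleotides of the peak stretch differed 8.74-fold, from 2257 and 1830 RPM to 17679 and 18025 RPM. The log2 ratio of single nucleotides ran from 1.49 at U2688 to 3.84 at C2844, with a median of 2.78. Over the 3001 nucleotides of 25S outside the 3′ part of domain V, the median was 0.87 and the highest value 4.88, at nucleotide 2385. Relative to 25S coverage, the log2 ratio ran from 0.10 at U2744 to 2.39 at C2844, with a median of 1.30. Outside, the median was -0.63 and the highest value 3.27. Within the 3′ part of domain V, the nucleotide with the largest ratio therefore lay immediately 5′ of the peak stretch and not in it.

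In a comparison of 50-nt windows across the 35S with limma, all 8 windows of the 3′ part of domain V were higher in Dbp7-HTP. Over the whole 35S, 18.4% of 136 windows were higher at an adjusted p below 0.05, and 30 windows were lower, of which 0 were in 25S. Within 25S, 23 of 68 windows were higher, these 8 included. Among these 8, the window with the largest log2 ratio was 2801 to 2850, which had 839 and 496 RPM in WT and 6938 and 6338 RPM in Dbp7-HTP (log2 ratio 3.36 ± 0.50 SE, adjusted p = 0.000314). Window 2851 to 2900, with the coverage maximum, had 1920 and 1533 RPM against 14603 and 14925 RPM (log2 ratio 3.10 ± 0.48, adjusted p = 0.000365). The SEs of these windows overlap, so their order is not resolved.

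Immediately 3′ of the peak, window 2901 to 2950 had 675 and 467 RPM in WT and 4850 and 4852 RPM in Dbp7-HTP, a log2 ratio of 3.11. At the far 5′ end, about as large a ratio, 3.08, was found for window 2601 to 2650, with 479 and 323 RPM against 3578 and 3087 RPM. The 3 windows from 2651 to 2800 had smaller ratios. Window 2651 to 2700 had 566 and 248 RPM in WT and 1908 and 1744 RPM in Dbp7-HTP, a log2 ratio of 2.28. Window 2701 to 2750 had 886 and 484 RPM against 3284 and 3371 RPM, a log2 ratio of 2.34. Window 2751 to 2800 had the lowest, 2.15, with 997 and 492 RPM against 3265 and 2983 RPM. The last window, 2951 to 2995, lay in between at 2.53, with 546 and 739 RPM against 3952 and 3400 RPM. It was the only window of the 8 in which WT replicate 2 exceeded WT replicate 1.

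When coverage was expressed as a share of the 25S coverage, the 8 windows separated into 4 that passed the limma test and 4 that did not. Over 25S, 8.82% of 68 windows were higher on this scale. Windows 2601 to 2650, 2801 to 2850, 2851 to 2900 and 2901 to 2950 were higher, with log2 ratios of 1.59, 1.87, 1.62 and 1.62 and the same adjusted p of 0.0350. Windows 2651 to 2700, 2701 to 2750, 2751 to 2800 and 2951 to 2995 had log2 ratios of 0.79, 0.86, 0.67 and 1.04 and adjusted p-values of 0.198, 0.155, 0.208 and 0.198. In all 8 windows, both Dbp7-HTP values lay above both WT values, but this was not counted over the other windows of 25S. Of single 25S nucleotides, 22.6% were higher in both Dbp7-HTP libraries on this scale. Of the 37 nucleotides whose shares overlapped between strains, 18 were in window 2651 to 2700, 13 in window 2701 to 2750 and 6 in window 2751 to 2800. The 4 windows that were not called on this scale also lost their call in RPM when either Dbp7-HTP library was left out, with adjusted p-values from 0.0617 to 0.156, while the other 4 were called in each of these fits. Scaling to the summed 35S coverage moved the median log2 ratio of all 35S windows from 0.09 to -0.57 and the calls from 25 higher and 30 lower to 17 higher and 47 lower. All 8 windows were still higher on that scale, with a median log2 ratio of 1.96.

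**Figure D2:**
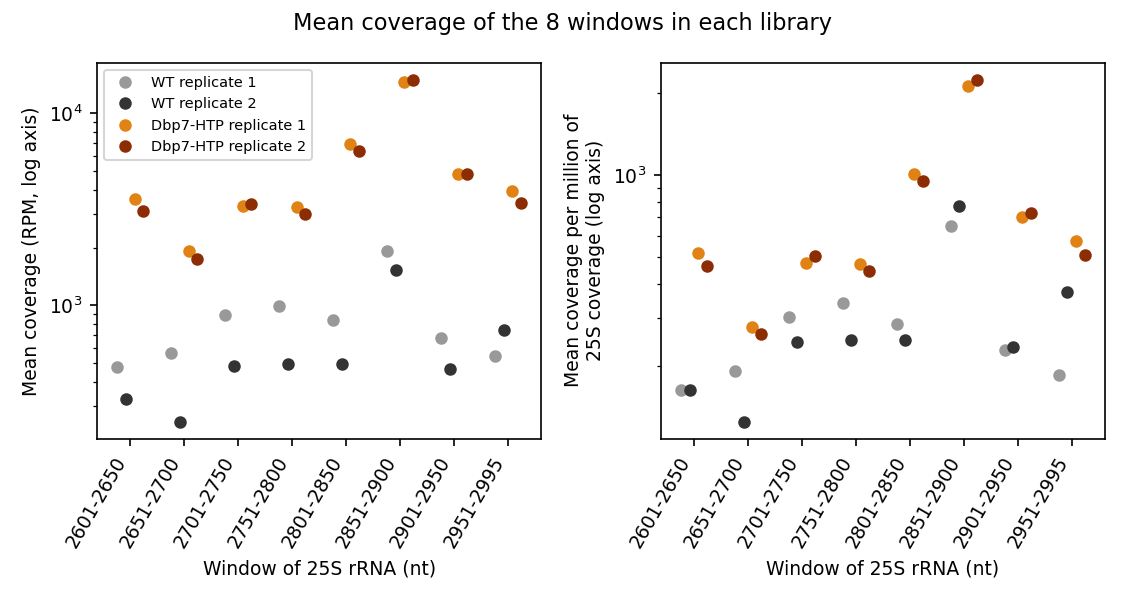
Mean coverage of the 8 windows, in RPM (left) and as a share of the 25S coverage in parts of 1000000 (right), on log axes, with 1 point for each library. In RPM the Dbp7-HTP points exceed the WT points in every window, with the highest values, 14603 and 14925 RPM, in window 2851 to 2900, and on the right the points of the 2 strains come closest in window 2751 to 2800.

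Local maxima outside the peak stretch were listed after the values had been seen, with no minimum height. The highest was C2821, a nucleotide of the peptidyl transferase ring, with 1043 and 541 RPM in WT and 7459 and 6732 RPM in Dbp7-HTP. U2915 followed, with 823 and 421 RPM against 5792 and 6191 RPM, and then A2956, with 716 and 1016 RPM against 5779 and 5075 RPM. Near the 5′ end, U2612 had 710 and 518 RPM in WT and 5875 and 4899 RPM in Dbp7-HTP. These 4 maxima had between 6.27-fold and 9.63-fold higher mean coverage in Dbp7-HTP. G2761, in the part with the lowest ratios, had 1515 and 721 RPM against 4054 and 3917 RPM, 3.57-fold. The lowest coverage in Dbp7-HTP was at A2637, with 449 and 441 RPM against 126 and 53.5 RPM in WT.

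Of the hairpins that surround the ring, 4 were compared, with limits carried over from the numbering of the Escherichia coli 23S rRNA by a constant shift of 369 nucleotides. At this shift, all 10 conserved nucleotides of the centre that were looked up had the E. coli base. The hairpins are printed because they divide the peak from its 3′ flank. Capitals mark uridines of helix 89 that were among the 10 with the most substitutions.
helix 89, nucleotides 2823 to 2867: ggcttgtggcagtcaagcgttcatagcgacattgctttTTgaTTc
helix 91, nucleotides 2889 to 2914: cataccgaagcagaattcggtaagcg
helix 92, nucleotides 2916 to 2930: tggattgttcaccca
helix 93, nucleotides 2957 to 2975: gaccgtcgtgagacaggtt
Helix 89, which runs from the ring to the tRNA accommodation corridor, contains the 5′ part of the peak stretch and had 1433 and 1047 RPM in WT and 11834 and 11747 RPM in Dbp7-HTP. Helix 91 had 691 and 402 RPM against 5019 and 5166 RPM. Helix 92 carries the A loop, which positions the aminoacyl end of the A-site tRNA, and had 732 and 379 RPM against 5094 and 5309 RPM. These 3 hairpins had similar folds of 9.51, 9.32 and 9.36. Helix 93 had 636 and 864 RPM in WT and 4702 and 4004 RPM in Dbp7-HTP, 5.80-fold. Dbp7-HTP exceeded WT in both libraries for all 4, and the folds were not tested against each other. Folded alone with RNAfold, helices 91 and 93 each gave 1 stem of 7 base pairs, helix 89 gave 2 separate stems and helix 92 gave 0 pairs, so paired and unpaired uridines were not compared.

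Substitutions were counted at each uridine and compared with edgeR over 1138 uridines of the 35S pre-rRNA. In the 3′ part of domain V, 74 of 105 uridines had more substitutions in Dbp7-HTP and 0 had fewer, where 17.1% of all uridines tested had more. Within 25S, 187 of 725 uridines had more, these 74 included. Of the 18 uridines of the peak stretch, 16 were called, and of the 87 outside it, 58 were called. The median log2 ratio of the 105 uridines was 2.84, compared with 1.005 for the 620 uridines of 25S outside. The highest was 5.48 among the 105 and 6.93 outside. The calls were spread over all 8 windows, with 17 of 19 uridines in window 2851 to 2900, 12 of 13 in window 2901 to 2950 and 9 of 11 in each of windows 2601 to 2650 and 2801 to 2850. In window 2651 to 2700 only 1 of 7 was called, U2655. With either Dbp7-HTP library left out, 10 of the 87 uridines still tested were called, and with the library size set to the summed 25S coverage 41 of 105 were called. With factors from the trimmed mean of M values (TMM), 71 were called, while the calls over the 35S changed from 195 higher and 96 lower to 159 higher and 194 lower, and the median log2 ratio from 0.50 to -0.01.

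The uridine with the most substitutions in Dbp7-HTP was U2866, 1 nucleotide 3′ of a pseudouridine and within the peak stretch. It had 157 and 154 RPM of substitutions in WT and 3014 and 3247 RPM in Dbp7-HTP (log2 ratio 4.33 ± 0.65 SE, adjusted p = 0.0118). U2868 had 201 and 120 RPM against 2696 and 2780 RPM, with a log2 ratio of 4.11 (adjusted p = 0.0118). In both, the number in Dbp7-HTP was more than 10 times that in WT, and the libraries of each strain were close. U2865 and U2873 had 2433 and 2376 RPM and 2347 and 2364 RPM in Dbp7-HTP, against 245 and 150 RPM and 182 and 156 RPM in WT. U2861, U2862 and U2869 completed the group, with log2 ratios of 3.23, 3.83 and 3.69.

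Of the 10 uridines with the most substitutions in Dbp7-HTP, 2 lay outside the peak stretch. U2818, which is 2 nucleotides 5′ of A2820, the counterpart of the ring adenosine A2451 of E. coli, had 314 and 137 RPM in WT and 2695 and 2439 RPM in Dbp7-HTP (log2 ratio 3.53, adjusted p = 0.0160). This made it the third highest. U2655, far from the peak in sequence, had 333 and 98.4 RPM in WT and 1845 and 1762 RPM in Dbp7-HTP (log2 ratio 3.09, adjusted p = 0.0270). Coverage was 6598 and 5657 RPM at U2818 and 2649 and 2490 RPM at U2655 in Dbp7-HTP, on either side of the median of the stretch, 3908 and 3761 RPM. Of these 10 uridines, 0 passed the test when either Dbp7-HTP library was left out, with adjusted p-values from 0.0692 to 0.688. They held 24.9% and 28.8% of the substitutions of the 3′ part of domain V in WT and 33.0% and 34.1% in Dbp7-HTP, and the 5 uridines with the most substitutions in WT held 17.9% and 24.1% in WT and 10.6% and 10.5% in Dbp7-HTP. Each set was picked for its values in 1 strain, so a larger share there is built in.

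The uridines with the most substitutions in WT differed in part from those in Dbp7-HTP. Over the 105 uridines, Spearman's correlation of substitutions was 0.660 between the WT libraries. With the Dbp7-HTP libraries it was 0.507 and 0.536 for WT replicate 1 and 0.738 and 0.761 for WT replicate 2, so WT had no common order of its own. The highest in WT was U2875, which corresponds to the conserved ring uridine U2506 of E. coli, with 874 and 834 RPM. It had 1748 and 1975 RPM in Dbp7-HTP, and its log2 ratio of 1.12 did not pass the test (adjusted p = 0.161), although it did without WT replicate 1 (adjusted p = 0.00960) and without WT replicate 2 (adjusted p = 0.0120). Thus U2875 exceeded every other uridine of the stretch in WT but had rank 7 in Dbp7-HTP. The next in WT were U2955, U2701, U2750 and U2818. U2955 had 75.4 RPM in WT replicate 1 and 488 RPM in WT replicate 2, and 1029 and 968 RPM in Dbp7-HTP, so its place rests on WT replicate 2. Its log2 ratio was 1.80 (adjusted p = 0.134), with 1.03 (adjusted p = 0.0129) without WT replicate 1 and 3.72 (adjusted p = 0.000367) without WT replicate 2. U2701 had 320 and 184 RPM in WT and 1215 and 1214 RPM in Dbp7-HTP, a log2 ratio of 2.28 (adjusted p = 0.0294). At U2750, the WT libraries, with 396 and 101 RPM, lay on both sides of the Dbp7-HTP libraries, with 291 and 296 RPM (adjusted p = 0.782), and without WT replicate 1 the log2 ratio was 1.54 (adjusted p = 0.00804).

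**Figure D3:**
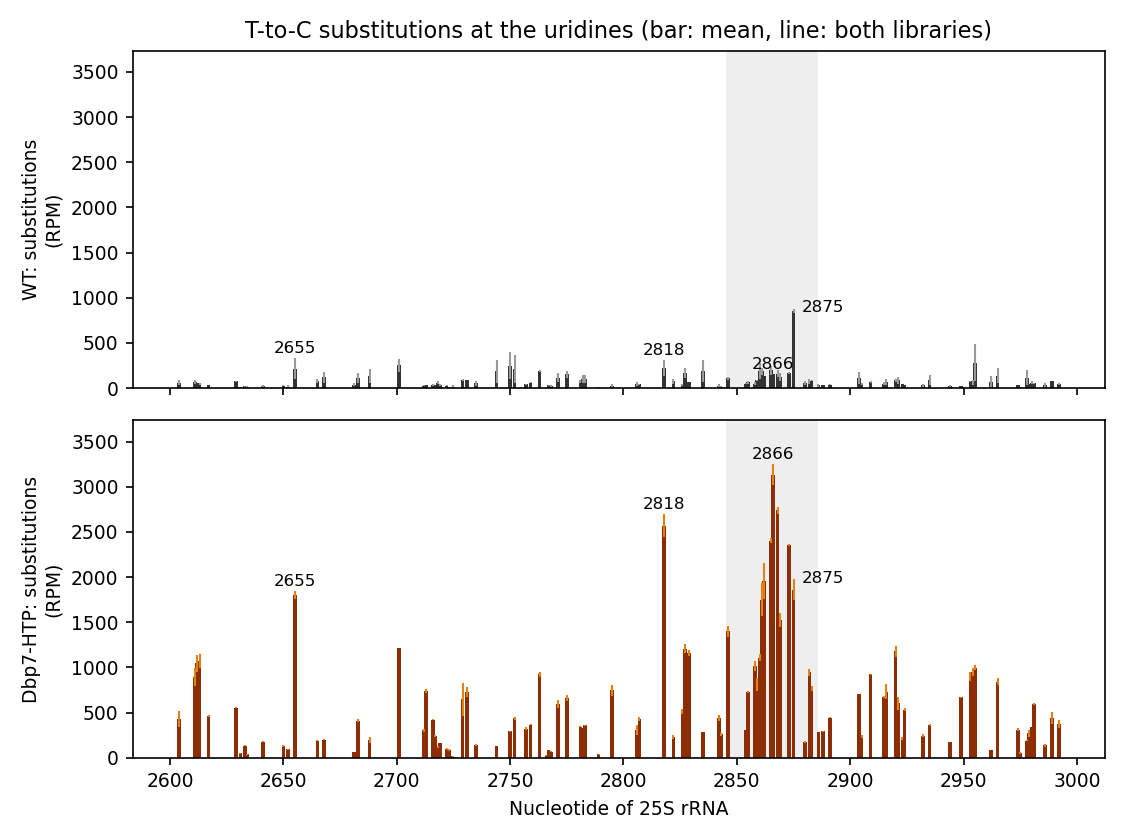
Substitutions in RPM at each of the 105 uridines in WT (top) and Dbp7-HTP (bottom), by position in 25S rRNA, with bars for the mean of 2 libraries, lines between their values and the peak stretch in grey. The highest bar in Dbp7-HTP is U2866, with 3014 and 3247 RPM, and the highest in WT is U2875, with 874 and 834 RPM.

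The 5 called uridines with the largest log2 ratio all lay outside the peak stretch. U2949, 1 nucleotide 3′ of the 2′-O-methylated C2948, had 18.9 and 21.4 RPM in WT and 678 and 665 RPM in Dbp7-HTP, a log2 ratio of 5.03 (adjusted p = 0.0118). U2795 had 6.28 and 42.8 RPM against 807 and 688 RPM, a log2 ratio of 4.74. U2713 had 31.4 and 29.9 RPM against 766 and 716 RPM, a log2 ratio of 4.59. These 3 sites were low in both WT libraries and high in both Dbp7-HTP libraries. The WT values rest on few substitutions, 3 and 10 at U2949, 1 and 20 at U2795 and 5 and 14 at U2713. A choice by the largest ratio favours such sites. U2613 had 37.7 and 62.0 RPM against 1144 and 996 RPM, a log2 ratio of 4.38, and its neighbours U2611 and U2612 had log2 ratios of 3.76 and 4.22. At U2723, the WT libraries held 1 and 0 substitutions and the Dbp7-HTP libraries 94 and 68. The ratio per mapped read was 52.2, with a 95% Clopper-Pearson interval of 9.24 to 2074 that covers counting error only.

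The number of substitutions follows coverage, so the substitutions were also divided by the reads covering the uridine. Over all uridines of the 3′ part of domain V, 10.5% and 9.65% of covering reads in WT and 9.85% and 10.05% in Dbp7-HTP carried a substitution, a difference of -0.148 percentage points with SDs of 0.632 and 0.139 (exact permutation p = 1). The share was thus about equal between the strains in sum. Only reads with a T-to-C change were kept, so every read carries a substitution and this sum had little room to differ. Single uridines differed in both directions. Among the 104 uridines with at least 30 covering reads in every library, the share was higher in both Dbp7-HTP libraries at 41 and lower in both at 30. The same held for 30.8% and 28.2% of all 25S uridines with this coverage.

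The largest difference towards Dbp7-HTP was at U2655, where 54.1% and 38.3% of reads in WT and 69.7% and 70.8% in Dbp7-HTP carried a substitution, on 98 and 120 reads in WT and 3216 and 1819 in Dbp7-HTP. The 95% Wilson intervals of the WT libraries were 44.2% to 63.6% and 30.1% to 47.3%, both below the Dbp7-HTP values. U2795 had 1.39% and 15.2% in WT, on 72 and 132 reads, and 29.1% and 28.7% in Dbp7-HTP. U2949 had 3.19% and 2.97% against 14.5% and 15.7%. At these 3 sites the ratio of the substitutions between strains thus exceeded that of the coverage. U2818 had 37.0% and 30.3% in WT and 40.8% and 43.1% in Dbp7-HTP, a smaller gap. In the peak stretch, U2866 had 6.41% and 7.42% in WT and 14.2% and 14.9% in Dbp7-HTP, and its Wilson intervals did not overlap between strains.

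The largest difference in the other direction was at U2875, where 31.0% and 38.5% of reads carried a substitution in WT and 8.52% and 9.50% in Dbp7-HTP. Its coverage was 449 and 1012 reads in WT, which makes this the most precise of the WT shares above 30%. Only 2 nucleotides away, U2873 differed the other way, with 6.39% and 7.03% in WT and 11.0% and 10.9% in Dbp7-HTP. U2835 had 32.5% and 15.3% in WT and 4.41% and 4.62% in Dbp7-HTP, with a wide gap between the WT libraries. U2701 kept a share above 47% in all libraries, at 60.0% and 54.4% in WT and 47.9% and 53.1% in Dbp7-HTP. U2955 was not reproducible in WT, at 14.8% and 62.3%, and had 21.8% and 23.1% in Dbp7-HTP.

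**Figure D4:**
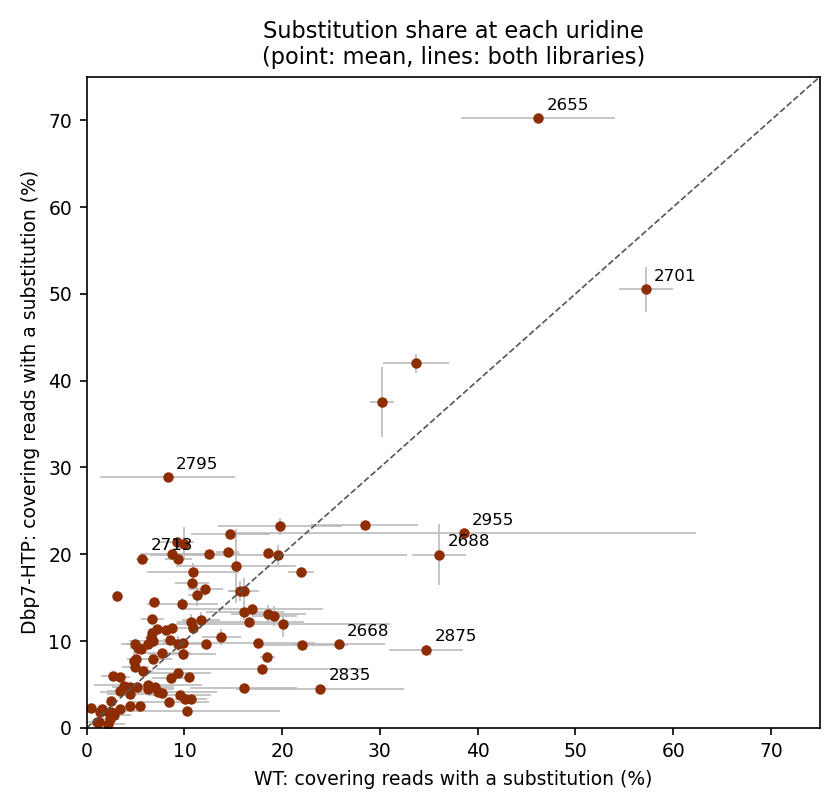
Share of covering reads with a substitution at 104 uridines, in WT (horizontal axis, %) and Dbp7-HTP (vertical axis, %), with points for means, lines between the 2 libraries and a dashed line of equality. U2655 and U2795 lie above the line, U2875 and U2835 lie below it, and the long horizontal line at U2955 spans 14.8% to 62.3%.

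Modified nucleotides were looked up from a list of 22 known modifications, all of which had the listed base in the deposited sequence. Their coverage had a median log2 ratio of 3.02, beside 2.78 for all 395 nucleotides, and ranged from 2.13 to 3.80. In the peak stretch were 3 of them, U2865, C2870 and U2880. U2880, pseudouridylated with the box H/ACA snoRNA snR34, had 2495 and 1978 RPM of coverage in WT and 17102 and 17533 RPM in Dbp7-HTP, yet only 3.27% and 1.51% of reads in WT and 0.968% and 1.04% in Dbp7-HTP carried a substitution there. The other site of snR34, U2826, had 4.38% and 5.33% in WT and 6.97% and 8.51% in Dbp7-HTP. U2865, a pseudouridine made with snR46, had 10.1% and 7.31% against 11.8% and 11.2%. C2870, methylated by Nop2, had 2564 and 2128 RPM of coverage in WT and 21429 and 21807 RPM in Dbp7-HTP.

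The lowest log2 ratio of coverage in the list was that of U2735, a pseudouridine made with snR189, with 918 and 456 RPM in WT and 2821 and 3217 RPM in Dbp7-HTP. The highest was that of U2843, which is methylated by Bmt6 and lies just 5′ of the peak stretch, with 484 and 304 RPM against 5686 and 5333 RPM. A2640, a 2′-O-methylated adenosine of snR68, lay in the trough near A2637 and had 107 and 83.4 RPM against 1020 and 888 RPM, a log2 ratio of 3.31. C2948, 2′-O-methylated with snR69, had 591 and 719 RPM against 4678 and 4225 RPM. G2922 of the A loop, methylated by the enzyme Spb1, had 804 and 417 RPM against 5572 and 5956 RPM. The sites of box H/ACA and box C/D snoRNAs and of stand-alone enzymes were therefore all covered more in Dbp7-HTP, as were all other nucleotides of the stretch.

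The 12 modified uridines with enough coverage had lower substitution shares than the rest in every library. Their medians were 6.56% and 5.25% in WT and 4.30% in each Dbp7-HTP library, against 9.79%, 9.24%, 10.1% and 10.2% for the 92 others. For the 7 pseudouridines alone, the medians were 6.30%, 5.16%, 3.78% and 4.09%. The ranges overlapped, since modified uridines reached 22.9% and others went down to 0.359% in Dbp7-HTP replicate 2. The difference was present without Dbp7-HTP as well and was not tested. It also takes no account of how many other uridines lay nearby, although every kept read had to carry a substitution.

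The 10 conserved nucleotides of the centre had a median log2 ratio of coverage of 3.07. The lowest was A2971, the counterpart of A2602 of E. coli, with 566 and 806 RPM in WT and 4274 and 3631 RPM in Dbp7-HTP. A2820 had 1018 and 539 RPM against 7454 and 6659 RPM. U2953 and U2954, the counterparts of U2584 and U2585, had substitution shares of 15.7% and 9.38% and of 7.41% and 11.0% in WT. Both were higher in Dbp7-HTP, at 20.2% and 19.95% for U2953 and 21.2% and 21.6% for U2954.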

How the data were processed

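PAR-CRAC libraries of 2 strains, 2 each, were analysed. The authors mapped reads with Bowtie2 (version 2.2.4), retained only T-to-C reads and used pyCRAC to assign these to RNAs. The genome build is not given in the sources used here, and positions count from the first nucleotide of 25S. For each nucleotide of the 35S pre-rRNA the authors deposited the coverage signal and the count of substitutions, neither normalized. The deposited class values and snR190 profile are scores in RPM, rounded by the authors, and served only for library totals. The profile states the totals of the second replicates. Those of the first replicates were estimated from the summed 35S coverage, the rRNA score and the coverage that each rRNA read gave in the strain's other library, 12.2 in WT and 11.1 in Dbp7-HTP. Since only reads with a T-to-C change were kept, coverage near uridines that cross-link well is favoured. The 4 nucleotides that spacers repeated from mature rRNA were removed, leaving 6858.

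Mean coverage of 50-nt windows with at least 10 RPM was compared as log2(RPM + 1) with limma (version 3.58.1, R 4.3.3), and substitution counts at uridines with at least 10 in 2 libraries with edgeR's quasi-likelihood test (version 4.0.16), with total mapped reads as library size and Benjamini-Hochberg adjustment at 0.05 over the whole 35S. Standard errors for edgeR were derived from its F statistic. Both procedures were tested on simulated data. Single values were compared by exact two-sided permutation tests. Wilson intervals at 95% cover counting error only. Hairpins were folded with RNAfold (version 2.7.2). Substitution shares used uridines with at least 30 covering reads in every library. Alternatives covered scaling, totals, pseudocount, filters, window size, DESeq2 (version 1.42.0), TMM, the replicate block and each library left out.

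The text names all windows, coverage maxima at least 20 nt apart and 2 times the median, the 10 uridines with the most substitutions in Dbp7-HTP and 5 in WT, the 5 called with the largest ratio each way, modified and conserved nucleotides, and hairpins. The members and lists were chosen with earlier results of these data known. Uridines and maxima named outside this rule were chosen after their values were seen. The snoRNA tables were not used here.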

Additional observations from a re-analysis of the deposited data

How the results depend on the processing

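The share of 25S coverage taken by the 3′ part of domain V was higher in Dbp7-HTP under every alternative tried, by 11.1 to 19.7 percentage points, and by 18.5 to 18.7 with each library left out. The log2 ratio of its mean coverage was 2.86, between 1.37 and 2.998 under other scalings, totals and summaries, and between 2.59 and 3.13 with each library left out. Over the 35S, 55 windows were called, 7 with scaling to 25S coverage among 25S windows, 36 with totals of the first replicates from the other strain, 91 with 25-nt and 31 with 100-nt windows, and 12 to 91 with each library left out. Of the 8 windows described, 4 were called with scaling to 25S coverage, 4 to 8 with each library left out and 8 under the other settings with 50-nt windows. Substitutions were called at 291 uridines of the 35S, at 460 with library size set to 25S coverage, at 522 with at least 1 substitution, at 308 with DESeq2 and at 17 to 628 with each library left out. Among the 105 uridines, the calls were 74, 41 with library size set to 25S coverage, 67 with DESeq2, 84 with at least 1 substitution and 10 to 101 with each library left out. Without WT replicate 1, there were 101 calls. The log2 ratio at U2750 was 0.27 and changed sign with DESeq2 (-0.12), TMM (-0.063), DESeq2 factors in edgeR (-0.12) and library size set to 25S coverage (-1.08), and ran from -0.43 to 1.54 with each library left out. That at U2875 was -0.38 with library size set to 25S coverage and 1.03 to 1.21 with each library left out. None of these reversed values passed the test, and the cause was not tested. At U2955 the replicate block gave 2.30 and an adjusted p of 0.0412.

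Replicate numbers are shared between the strains only as numbers, and deviations of same-numbered libraries had a correlation of 0.14 across windows. With the replicate block, 63 windows and 319 uridines of the 35S were called, among them 8 windows and 80 uridines of the 3′ part of domain V, and the paired differences averaged 18.6 percentage points and 2.86 on the log2 scale.

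Estimated totals of the first replicates and the low depth of WT replicate 1 limit the RPM values of those libraries and the ratios that use them. Coverage windows and uridines that share reads are not independent. Dbp7-HTP was compared with untagged cells, so the effect of the tag or of purifying any pre-ribosomal protein cannot be told apart from that of Dbp7.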

Other observations

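At 3 of the uridines with high substitution shares, U2655, U2701 and U2818, the next bases were AA, which was noticed after the values were seen. The 3′ part of domain V had 6 uridines followed by AA with at least 30 covering reads in every library, and their median shares were 24.8% and 22.2% in WT and 28.6% and 29.3% in Dbp7-HTP. The 98 other uridines had medians of 7.91%, 8.96%, 9.36% and 9.52%. The 6 include the 3 uridines at which the pattern was noticed, so a high median among them is built in. Of the other 3, U2634 was low, at 12.5% and 4.26% in WT and 3.34% and 2.60% in Dbp7-HTP. U2932 was also low, at 10.7%, 4.76%, 8.42% and 8.77%, and U2909 had 10.3%, 14.0%, 16.4% and 15.5%. In 25S outside, 39 uridines followed by AA had medians of 8.99%, 11.1%, 11.3% and 13.0%, beside 8.16%, 7.09%, 7.41% and 7.85% for 527 others. The gap was smaller there, but those 39 did not prompt the pattern, so the gaps cannot be set against each other. The pattern was present in WT as well as in Dbp7-HTP and was not tested. Every kept read carries a substitution, so a share also depends on the other uridines in the read, which was not taken into account.

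The consecutive uridines U2953, U2954 and U2955 had close values in Dbp7-HTP, with shares of 20.2%, 21.2% and 21.8% in replicate 1 and 19.95%, 21.6% and 23.1% in replicate 2. In WT replicate 2 they had 9.38%, 11.0% and 62.3%, on 352, 364 and 366 reads. WT replicate 1 had 15.7%, 7.41% and 14.8% on 81 to 83 reads.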
